A study of Mus musculus with 8 samples.

Results

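The 76 genes described here encode proteins of the cytosolic ribosome and were taken by symbol, as every gene whose name follows the Rpl, Rplp, Rps or Rpsa pattern, out of 18560 genes in the expression table. They comprise 46 large subunit and 30 small subunit genes, and no measured value entered the choice. RNA-seq was done on mouse dorsal root ganglia, the clusters of sensory neuron cell bodies beside the spinal cord, in 4 libraries labelled cKO and 4 labelled WT. All 8 carry the age label P60. The study set ganglia with a deletion of Alyref against ganglia without it; the cells in which the deletion was made and the driver used are not stated in the sources used.

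A ribosome is built from rRNA and about one copy of each ribosomal protein, so the genes of both subunits are usually transcribed together and at high levels in every cell type. Most of their mRNAs begin with a cytosine followed by a run of pyrimidines, the terminal oligopyrimidine (TOP) motif, through which mTORC1 and the RNA-binding protein Larp1 control their translation. Alyref is an adaptor that loads the export machinery onto processed nuclear mRNA. In cultured rodent sensory neurons, ribosomal protein mRNAs are among those found in axons.

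The sequences around the start sites are shown first, because the shared TOP start is the best known common feature of these genes. RefSeq promoter windows (build GRCm38.p6, 300 bases, of which 250 lie before the start) matched 56 of the 76 genes, and the first listed window of each gene was used. A TOP start, counted as C at the start base with C or T at each of the next 4 bases, was found in 12 of the 56 windows, or 21.4%, against 2.49% of 27025 windows of all genes. A pyrimidine run that begins at any base other than the listed start was not counted, so the other windows are not shown to lack the motif. Each sequence below gives 50 bases before the start and 30 bases from the start on. Capitals mark the pyrimidine run that holds a TOP start and any match on either strand to CCGGAAG (the ETS family core), AAGATGG (the YY1 core), TATAAA (the TATA box) or GGGCGG (the GC box); where marked stretches touch or overlap they run together. The first 4 sequences are of members with a TOP start and a high mean TPM (transcript abundance scaled by length and to a fixed total). They are not the 4 highest such members. Rps27 has a TOP start and the highest mean TPM of all 76 genes, and is shown in the next set. By RefSeq, the 4 lie as Rpl38 at chr11:114668530-114668609 on the plus strand, Rps21 at chr2:180257329-180257408 on the plus strand, Rpl35 at chr2:39005102-39005181 on the minus strand and Rpl28 at chr7:4792915-4792994 on the plus strand.
Rpl38: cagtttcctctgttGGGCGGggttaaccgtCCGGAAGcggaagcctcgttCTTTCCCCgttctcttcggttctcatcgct
Rps21: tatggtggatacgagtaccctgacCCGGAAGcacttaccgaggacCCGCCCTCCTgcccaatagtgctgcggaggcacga
Rpl35: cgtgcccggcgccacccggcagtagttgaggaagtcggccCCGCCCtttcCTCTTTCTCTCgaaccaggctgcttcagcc
Rpl28: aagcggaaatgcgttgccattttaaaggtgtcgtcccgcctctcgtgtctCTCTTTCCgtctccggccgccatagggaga
In these 4 the pyrimidine run includes the start base, and in Rps21 and Rpl35 it joins or follows a GC box match. The 4 members with the largest difference between WT replicate 2 and the other libraries, the main contrast in the data below, are Rpl39 at chrX:37085193-37085272 on the minus strand, Rpl34 at chr3:130730369-130730448 on the minus strand, Rps12 at chr10:23787180-23787259 on the minus strand and Rps27 at chr3:90213619-90213698 on the minus strand.
Rpl39: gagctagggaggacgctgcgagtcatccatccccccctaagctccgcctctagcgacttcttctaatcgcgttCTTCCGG
Rpl34: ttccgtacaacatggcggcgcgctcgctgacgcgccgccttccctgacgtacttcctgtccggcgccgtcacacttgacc
Rps12: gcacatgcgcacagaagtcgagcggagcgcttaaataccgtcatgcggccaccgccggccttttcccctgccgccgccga
Rps27: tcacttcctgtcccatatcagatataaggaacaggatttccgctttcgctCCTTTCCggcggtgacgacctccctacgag
Of these, Rps27 alone has a TOP start at the RefSeq position, and Rpl39 has an ETS core match at the end of the stretch. The 4 members with the smallest such difference among those with a window are Rps6 at chr4:86857338-86857417 on the minus strand, Rpl4 at chr9:64173337-64173416 on the plus strand, Rpl22 at chr4:152325676-152325755 on the plus strand and Rps15a at chr7:118116118-118116197 on the minus strand.
Rps6: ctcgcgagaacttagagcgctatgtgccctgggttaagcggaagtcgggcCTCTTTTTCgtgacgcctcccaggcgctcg
Rpl4: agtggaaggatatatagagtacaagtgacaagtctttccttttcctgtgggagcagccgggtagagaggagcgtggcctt
Rpl22: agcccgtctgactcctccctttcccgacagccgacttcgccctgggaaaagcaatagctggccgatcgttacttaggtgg
Rps15a: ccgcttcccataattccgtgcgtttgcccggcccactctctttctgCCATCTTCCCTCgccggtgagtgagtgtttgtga
Both Rps6 and Rps15a in this last set have a TOP start, so the start motif at the listed position was present in members at either end of the range. Over the whole 300-base windows the ETS core was found in 22 of 56 members (39.3%, against 9.12% of all windows). The GC box was found in 33 (58.9%, against 35.9%) and the YY1 core in 8 (14.3%, against 6.48%). The TATA box was found in 5 (8.93%, against 14.2% of all windows). A match describes letters in the window and is not a bound site.

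The libraries held 15763458, 15891481, 15934914 and 16482614 estimated counts in cKO replicates 1 to 4, and 15522915, 16311155, 16145201 and 16268160 in WT replicates 1 to 4. Alyref mRNA, in CPM (counts scaled by library size after TMM normalization), was 21.7, 19.4, 20.1 and 20.7 in the cKO libraries, and 20.9, 25.7, 19.4 and 22.2 in the WT libraries. The log2 fold change, cKO over WT, was -0.11 (SE 0.10, adjusted p = 0.887, edgeR quasi-likelihood test with Benjamini-Hochberg adjustment). The groups overlapped, and the libraries are called by their labels throughout; whether the counted exons include the deleted part was not analysed here. WT replicate 2 stood apart from the other 7 libraries. Its summed CPM over 11 nociceptor markers was 2264, against 144 to 553 in the cKO libraries and 178 to 615 in the other WT libraries, and all 11 were highest in it. Over 4 oligodendrocyte markers it had 756 CPM, against 1969 to 2665 in the cKO libraries and 1699 to 2662 in the other WT libraries. Oligodendrocytes and the spinal cord neurons whose 7 markers summed to 522 CPM in WT replicate 2 and to 938 to 1111 CPM elsewhere belong to the central nervous system, although all libraries are labelled ganglia. Fold changes of cKO over WT are therefore given below with and without this library, and the RNA of fewer cells cannot be told apart from less RNA per cell.

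All 76 genes passed the filter on low counts, as did 15098 genes in all. Mean estimated counts ran from 411 for Rps6 to 8838 for Rpl3, and the lowest value of any member in any library was 352 counts. The genes lie on 19 chromosomes, with 14 on chromosome 7, 7 on chromosome 11 and 4 on X. For 57 members the estimated counts were whole numbers in every library, within 0.005. For 11 they were fractional in some libraries, and for 8 they were fractional in all 8, namely Rps6, Rpl23, Rpl37, Rpl5, Rpl31, Rplp2, Rpl19 and Rps23. Ribosomal protein genes have many near-identical processed pseudogenes, and levels of members with fractional counts rest on how reads were shared out between copies or transcripts.

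The proteins are made in nearly equal number, but the listed mRNA levels were not equal. Mean TPM, a level per length, had a median of 982 over the 76 genes, with quartiles at 588 and 1283. The highest was 71.0 times the lowest. The small subunit median was 1025 TPM and the large subunit median 944 TPM. By mean TPM, 12 members were among the 50 highest genes of the table and 71 among the 500 highest. By mean estimated count, which is not scaled by length, none was among the 50 highest and 16 were among the 500 highest.

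At the top stood Rps27, a zinc finger protein of the small subunit (chr3:90212667-90213648, RefSeq gene span, GRCm38.p6). Its TPM was 3321, 3124, 3097 and 2755 in the cKO libraries, and 2810, 4723, 3571 and 2672 in the WT libraries. WT replicate 2 was the high library, the groups overlapped, and the counts were fractional in 6 libraries. Rpl23a, which sits at the exit of the tunnel for the growing chain, had a mean of 2949 TPM over the 8 libraries. Rpl38, which mouse embryos need for translation of a subset of Hox mRNAs, had 2544, 2960, 2277 and 2528 TPM in the cKO libraries, and 2699, 3191, 3222 and 2166 TPM in the WT libraries. Here WT replicate 3 was slightly above WT replicate 2 in TPM. In CPM, WT replicate 2 was the higher, at 70.5 against 46.8 in WT replicate 3. Rpl26, at the rim of the same exit, averaged 2526 TPM, Rps15, near the decoding centre, averaged 2419 TPM, and Rpl41, the shortest of the proteins, averaged 2358 TPM.

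At the bottom stood Rps6, the small subunit protein that S6 kinases phosphorylate downstream of mTORC1 (chr4:86854099-86857367). Its TPM was 46.0, 47.8, 46.4 and 39.1 in the cKO libraries, and 53.9, 47.2, 41.8 and 44.99 in the WT libraries. The level was low in all 8 libraries and no library stood apart. Rps20 followed with a mean of 58.2 TPM, Rps15a with 63.8, Rpl22, which mouse T cells need to mature, with 136, Rpl23 with 164 and Rpl15 with 331. Between these extremes the stalk proteins, which recruit translation factors, averaged 540 TPM for Rplp0, 1755 for Rplp1 and 970 for Rplp2. Rpl5 and Rpl11, which also bind the p53 regulator Mdm2 when ribosome assembly fails, averaged 462 and 535 TPM. Rps27a, made as a fusion with ubiquitin, averaged 1341 TPM.

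The order of levels went with the length over which the TPM were computed. The effective length, worked out from the deposited counts and FPKM, had a median of 393 bases over members, and ran from 35.3 for Rpl38 to 4802 for Rps15a. It was under 200 bases for 22 members and over 1000 for 12. In 549 genes with 1 transcript, the effective length fell short of the transcript by a median of 327 to 351 bases, depending on the library. The shortfall was largest in WT replicate 3. For Rpl38 the effective length ran from 28.1 to 39.1 bases over the libraries, so TPM of short members also vary with it. Over the 76 members, Spearman's rho with effective length was -0.73 for mean TPM and 0.58 for mean count. Both are descriptions over genes of the same libraries, and the divisor is part of the TPM itself. The low levels of Rps20 and Rps15a went with effective lengths of 3112 and 4802 bases. Rps6 had fractional counts in all libraries, but the other members fractional in all ranged from 164 TPM for Rpl23 to 1579 TPM for Rps23.

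**Figure D1:**
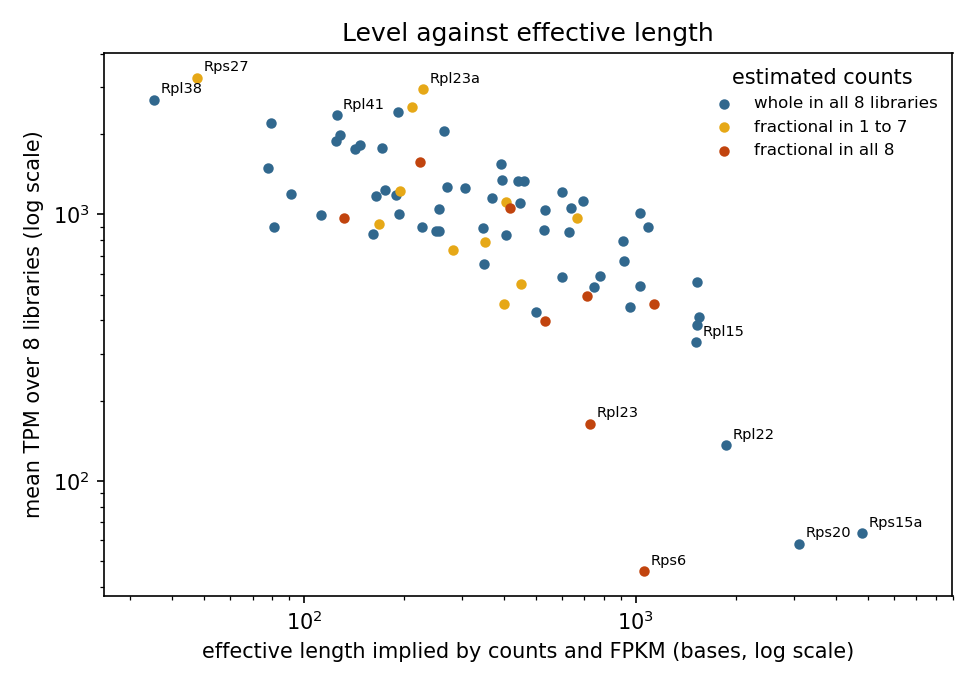
Mean TPM over the 8 libraries (log axis) against the effective length in bases implied by counts and FPKM (log axis), 1 point per ribosomal protein gene, coloured by whether its estimated counts were whole. Levels run from 45.9 TPM for Rps6 to 3259 TPM for Rps27, and the members with the longest effective lengths lie at the bottom.

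In cKO against WT, no ribosomal protein gene passed the test with edgeR, nor with DESeq2 or limma. Of the 76, 0 had an adjusted p below 0.05, against 0% of all 15098 genes tested, and 0 had an unadjusted p below 0.05, against 1.65% of all genes. All 76 fold changes were below 0, against 51.5% of all genes, and 0 were above 0, against 48.5% of all genes. The members had a median log2 fold change of -0.15, against -0.0048 for all tested genes. They ranged from -0.30 for Rps12 to -0.03 for Rpl21. Adjusted p-values lay between 0.887 and 0.949. In every one of the 76 genes the CPM ranges of cKO and WT overlapped, while 1.52% of all genes had groups that did not. The median half-width of the 95% interval of a member's log2 fold change was 0.38, and the bounds over all members ran from -0.87 to 0.49.

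The direction turned on WT replicate 2. Without it, 70 of the 76 fold changes were above 0, against 50.1% of all genes, with a median of 0.06, and members ranged from -0.05 for Rps6 to 0.23 for Rpl39. At effective lengths under 200, 200 to 500, 500 to 1000 and 1000 to 2000 bases, member medians were 0.090, 0.047, 0.058 and 0.024. Other tested genes of those lengths had medians of 0.083, 0.050, 0.033 and 0.016, so a median above 0 was not particular to the family. By mean TPM in place of the fit, 75 of 76 members had a lower cKO mean over the 8 libraries, and 26 of 76 without WT replicate 2. The split without that library thus depended on the measure. TPM also divide by an effective length that varied by library. Its median shortfall from the transcript was 351 bases in WT replicate 3, and 327 to 342 in the other libraries. The part of this in the TPM values was not tested. In the edgeR fit without WT replicate 2, no member passed the adjusted threshold, against 0.00661% of all genes tested. The lowest adjusted p of a member in that fit was 0.9997. Before adjustment, 2 of 76 members (Rpl24 and Rpl15) were below 0.05, against 1.94% of all genes. The median half-width of the interval was 0.14 without that library, and the bounds over members ran from -0.29 to 0.50. When a second library was left out as well, an alternative chosen after the data were seen, the number of members above 0 lay between 46 (also without WT replicate 4) and 74 (also without cKO replicate 3), and their median between 0.02 and 0.09.

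**Figure D2:**
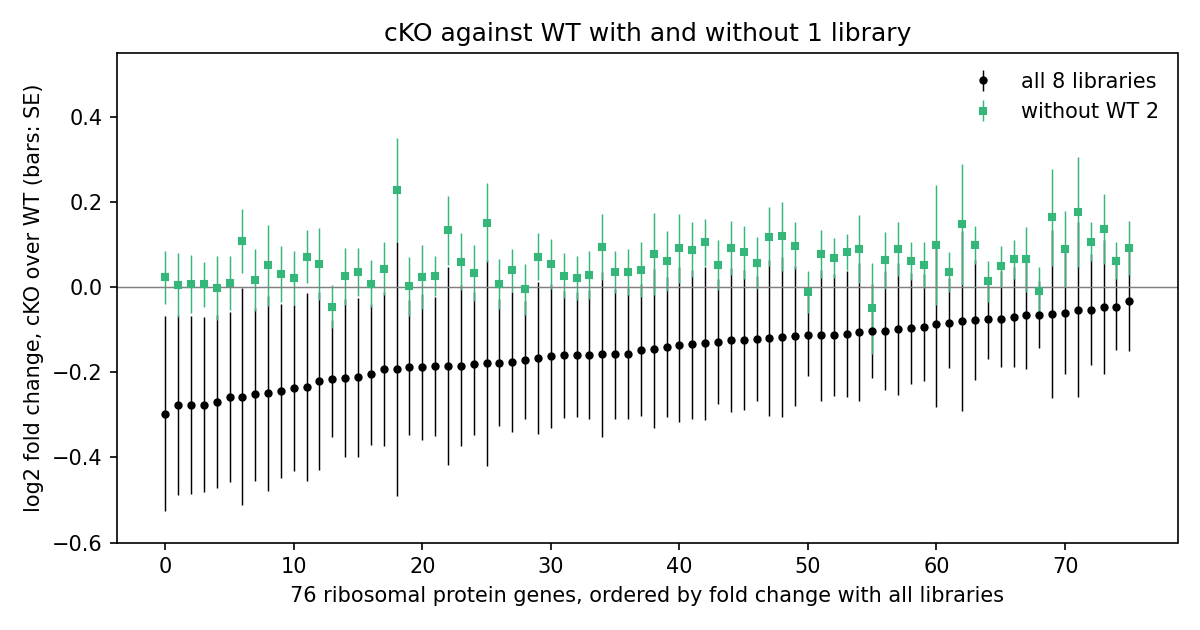
Log2 fold change, cKO over WT, with its standard error for each of the 76 ribosomal protein genes, ordered by the value with all 8 libraries (black) and shown again without WT replicate 2 (green). All 76 black points lie below 0 and 70 of 76 green points above 0.

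Of the 6 members with the lowest p-values, 5 are described here, all lower in the cKO mean. Rpl10, which joins the large subunit last before it becomes active, had 318, 296, 279 and 293 CPM in the cKO libraries, and 280, 550, 334 and 274 CPM in the WT libraries. WT replicate 2 was the single high library and the groups overlapped. The log2 fold change of Rpl10 was -0.28 (SE 0.21, adjusted p = 0.887, edgeR), and 0.01 without WT replicate 2. Rps20, a protein of the small subunit head, had 89.3, 91.8, 75.9 and 91.2 CPM in the cKO libraries, and 86.3, 162, 89.0 and 84.8 CPM in the WT libraries; its log2 fold change was -0.28, and 0.01 without WT replicate 2. Rpl10a, Rpl12 and Rps12 had log2 fold changes of -0.28, -0.27 and -0.30 in the fit of 8 libraries; leaving out WT replicate 2 gave 0.01, 0.00 (-0.0017) and 0.02.

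WT replicate 2 was high across the family. On the log2 CPM scale, each of the 76 genes was above its mean over the other 7 libraries in WT replicate 2, by a median of 0.65. The difference ran from 0.21 for Rpl8, a protein close to the peptidyl transferase centre, to 1.11 for Rpl39, a small protein that lines the exit tunnel. It was the highest library for 75 of 76 members in CPM, against 37.5% of all tested genes, and for 73 of 76 in TPM. The exception in CPM was Rps6, highest in WT replicate 1. In TPM, Rpl38 and Rpl8 were also exceptions, both highest in WT replicate 3. A difference above 0.5 was found in 63 members, or 82.9%, against 21.4% of the other tested genes. The large and small subunit medians were 0.63 and 0.66.

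Rpl39 had 64.8, 58.7, 43.0 and 57.6 CPM in the cKO libraries, and 51.5, 112, 47.1 and 45.1 CPM in the WT libraries. WT replicate 2 had 2.16 times the geometric mean of the others, and the remaining 7 libraries of both groups overlapped. Rpl34, a large subunit protein, had 78.8, 81.4, 66.2 and 73.3 CPM in the cKO libraries, and 70.3, 149, 73.5 and 65.0 CPM in the WT libraries. Rps12, of the small subunit beak, had 108, 107, 103 and 111 CPM in the cKO libraries, and 115, 210, 108 and 95.1 CPM in the WT libraries. In both, WT replicate 2 was the single high library. Rps27 had 89.8, 76.3, 69.4 and 74.2 CPM in the cKO libraries, and 74.4, 141, 72.4 and 62.5 CPM in the WT libraries. Rps25, which several viral internal entry sites depend on in human cells, had 150, 141, 121 and 127 CPM in the cKO libraries, and 144, 250, 133 and 112 CPM in the WT libraries. These 5 had the largest SDs of log2 CPM of all members over the 8 libraries, with WT replicate 2 as the high library in each.

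At the other end, Rpl8 had 253, 240, 227 and 231 CPM in the cKO libraries, and 254, 276, 243 and 223 CPM in the WT libraries. Rpl4, whose long loop reaches into the exit tunnel, had 525, 488, 498 and 500 CPM in the cKO libraries, and 520, 624, 493 and 483 CPM in the WT libraries. WT replicate 2 was the highest library of both genes by a smaller margin. Rps6 had 25.4, 26.6, 24.8 and 21.995 CPM in the cKO libraries, and 29.99, 29.3, 22.6 and 24.3 CPM in the WT libraries, where replicates 1 and 2 were close together at the top. Rpl3, a core large subunit protein with the highest mean count of all members, had 542, 536, 548 and 538 CPM in the cKO libraries, and 535, 678, 522 and 499 CPM in the WT libraries. Rpl8, Rpl4 and Rpl3 had the 3 smallest differences of the large subunit and, like Rpl24, Rps28 and Rps29, are named after their values were seen.

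**Figure D3:**
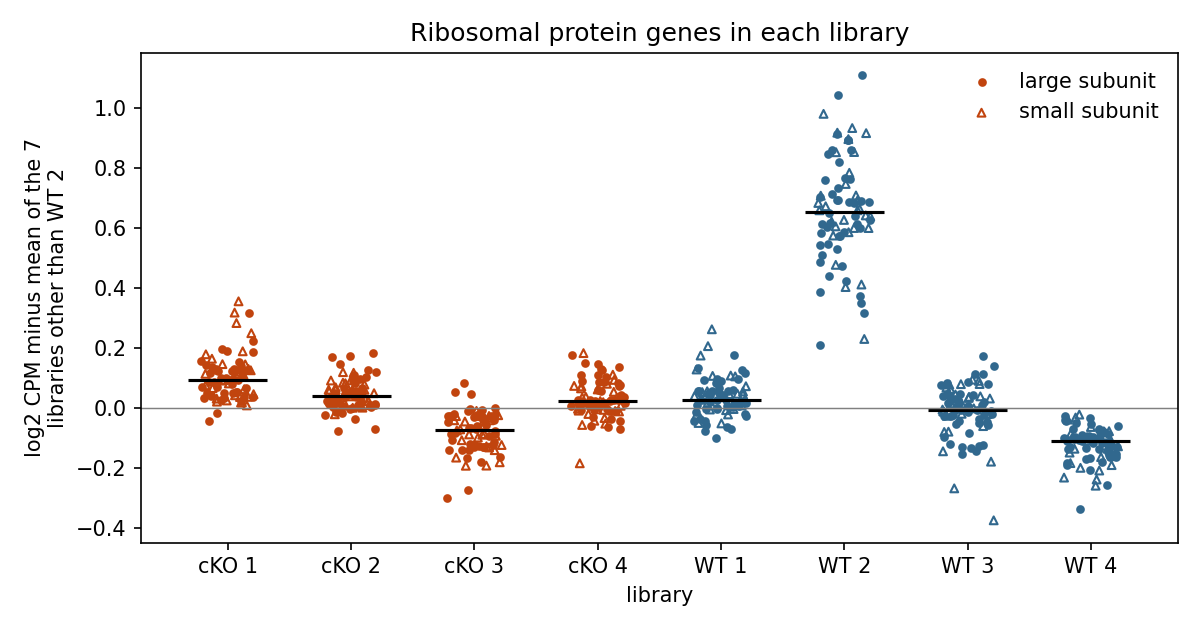
Log2 CPM of each ribosomal protein gene in each library, minus its mean over the 7 libraries other than WT replicate 2; black lines are medians, circles large subunit and triangles small subunit genes. In WT replicate 2 all 76 points lie above 0 with a median of 0.65, in WT replicate 4 all 76 lie below 0, and the subunits overlap in every library.

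Summed over the family, WT replicate 2 again stood apart. The 76 genes took 8.21%, 8.06%, 7.75% and 7.68% of all TPM in the cKO libraries, and 7.80%, 10.9%, 8.39% and 7.33% in the WT libraries. The means were 7.92% ± 0.25 in cKO and 8.61% ± 1.60 in WT (SD, n = 4 each), a difference of -0.68 percentage points. Without WT replicate 2 the WT mean was 7.84% ± 0.53 (SD, n = 3) and the difference 0.09 points, less than the spread within either group. As shares of estimated counts the family took 1.52%, 1.45%, 1.37% and 1.41% in the cKO libraries, and 1.42%, 2.34%, 1.46% and 1.3% in the WT libraries. The large subunit had 4.50% to 4.74% of TPM in cKO, and 4.28% to 6.32% in WT, while the small subunit had 3.17% to 3.46% in cKO and 3.04% to 4.598% in WT.

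**Figure D4:**
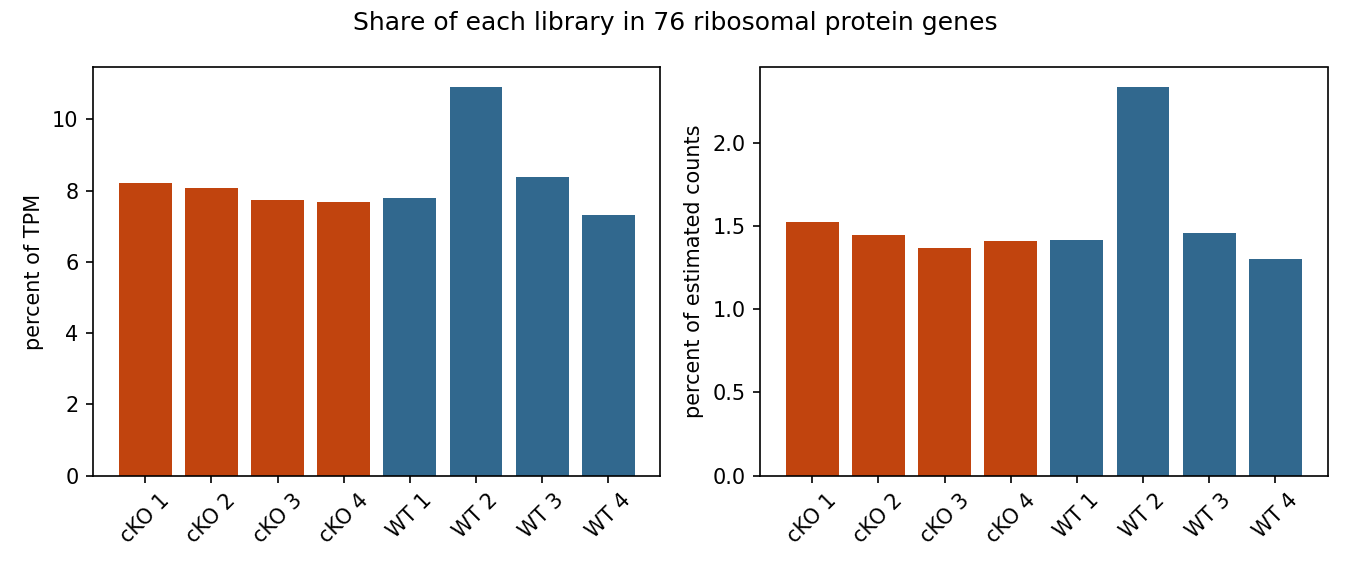
Percent of all TPM (left) and of all estimated counts (right) in the 76 ribosomal protein genes, 1 bar per library, cKO libraries in orange and WT libraries in blue. WT replicate 2 stands at 10.9% of TPM and 2.34% of counts, and the other 7 libraries lie between 7.33% and 8.39% of TPM.

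In the 7 remaining libraries the family still moved together, over a narrower range. WT replicate 4 was below the 7-library mean for 76 of 76 members, by a median of -0.11 in log2 CPM, and cKO replicate 3 was below it for 73, by a median of -0.07. In cKO replicate 1, 74 members lay above it, with a median of 0.09. Low libraries were thus found in both groups, while the highest median was in cKO replicate 1. Median deviations were 0.04 and 0.02 in cKO replicates 2 and 4, and 0.03 in WT replicate 1. Of the 7, WT replicate 3 had the highest family share of TPM but a median deviation of -0.01 in CPM. There 36 members lay above and 40 below the mean. Respiratory chain genes had medians of -0.05, -0.08 and 0.06 in WT replicate 4, cKO replicate 3 and cKO replicate 1. Mitochondrial ribosomal protein genes had -0.03, -0.03 and 0.03, so these directions were not particular to the family. In WT replicate 3 the 2 sets had -0.11 and -0.05. The SD of log2 CPM over the 7 libraries ran from 0.04 to 0.23 over members, with a median of 0.09, against 0.11 for all tested genes. Over the 2850 pairs of members the median Pearson correlation of log2 CPM was 0.95 over 8 libraries and 0.66 over 7. Over 7, 98.0% of pairs were above 0. The pairs share libraries and scaling, so these are descriptions, and no such correlation was worked out for other genes. The least steady members over the 7 were short. Rps28 had 42.9, 36.4, 31.8 and 40.9 CPM in the cKO libraries, and 41.6, 57.5, 27.8 and 33.7 CPM in the WT libraries, with an effective length of 81.4 bases. Rps29 and Rpl38, at 77.7 and 35.3 bases, had SDs of 0.22 and 0.23.

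The difference in WT replicate 2 also varied with effective length, and not in these genes alone. Members under 200 bases had a median difference of 0.69 (22 genes), those of 200 to 500 bases 0.69 (26 genes), those of 500 to 1000 bases 0.61 (16 genes) and those of 1000 to 2000 bases 0.40 (10 genes). Other tested genes in the same bins had medians of 0.64 (92 genes), 0.52 (360), 0.32 (1167) and 0.11 (3465), and further -0.03 from 2000 to 4000 bases (5844) and -0.18 above 4000 (4094). The member medians were thus above those of other genes of like length in each of these 4 bins. The 2 longest members, Rps20 and Rps15a, had 0.90 and 0.40. Spearman's rho between the difference and effective length was -0.43 over the 76 members. The part of length in the result was not tested.

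**Figure D5:**
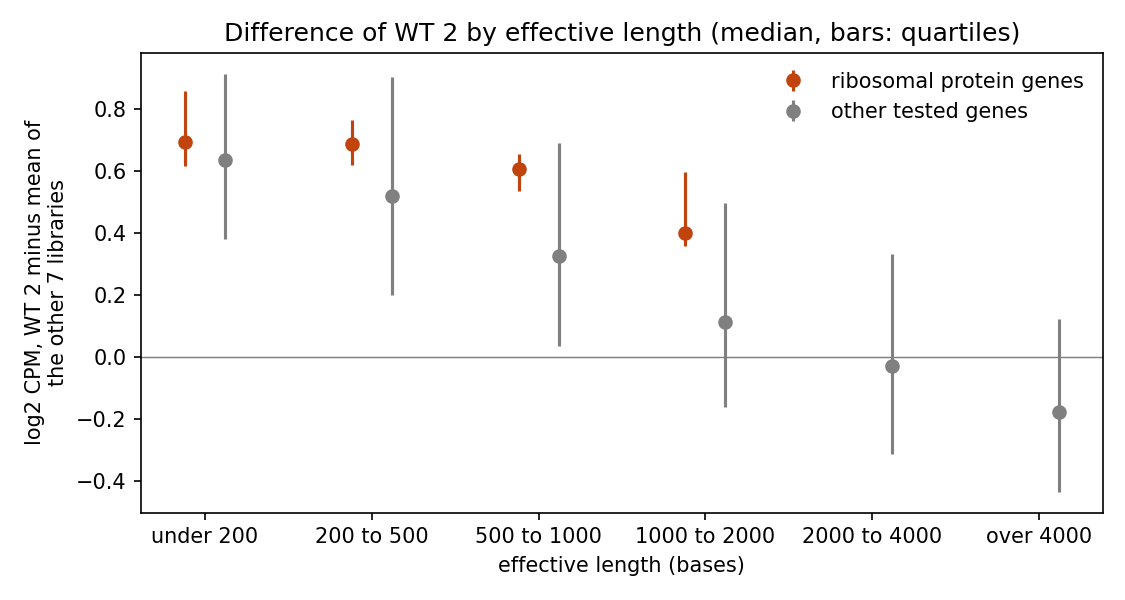
Median difference in log2 CPM between WT replicate 2 and the mean of the other 7 libraries, by effective length in bases, for ribosomal protein genes (orange) and all other tested genes (grey), with bars for the quartiles; bins with a single member are left out. Medians of both sets are lower at longer lengths, and members lie above other genes in each bin shown for them.

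Cell type markers moved with the same library. Summed CPM over 5 sensory neuron markers was 2112 in WT replicate 2, against 591 to 963 in the cKO libraries and 667 to 931 in the other WT libraries, with all 5 highest in it. Over 6 fibroblast markers it was 2814, against 679 to 938 in cKO and 677 to 1158 in the other WT libraries. Over 5 Schwann cell markers it was 5581, against 1768 to 4833 in cKO and 2160 to 4008 in the other WT libraries. The 5 red blood cell genes summed to 2892 CPM, against 718 to 1841 in cKO and 1090 to 1898 in the other WT libraries, and the 3 tested lymphocyte markers of 6 to 50.001, against 14.6 to 23.5 in cKO and 17.4 to 22.4 in the other WT libraries. The 5 astrocyte markers were lower there, at 1726 CPM against 4035 to 4696 in cKO and 3707 to 5006 in the other WT libraries. The 3 satellite glia markers summed to 894 CPM there, against 1164 to 1290 in cKO and 1146 to 1245 in the other WT libraries, although 2 of the 3 were highest in that library. Endothelial markers (103 CPM there, against 58.8 to 100.8 in cKO and 87.0 to 110 in the other WT libraries) and macrophage and microglia markers (145 CPM there, against 148 to 156 in cKO and 138 to 150 in the other WT libraries) differed less. No tested marker was at 0 in all libraries, and the part of these cell types in the ribosomal protein values was not tested.

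Ribosomal proteins outside the symbol pattern were lower in the cKO mean with all libraries and higher without WT replicate 2. Rps3a1 (508 ± 12.1 CPM in cKO, 555 ± 113 in WT, SD, n = 4 each), Fau, which encodes a ubiquitin-like fusion with a small subunit protein (103 ± 9.23 CPM in cKO, 116 ± 34.6 in WT), and Rack1, the scaffold on the small subunit head (153 ± 6.26 CPM in cKO, 171 ± 45.5 in WT), had log2 fold changes of -0.13, -0.16 and -0.16. None of the 3 passed the test (adjusted p = 0.887 for each, edgeR), and without WT replicate 2 all 3 values were above 0, between 0.02 and 0.07. Of 12 listed paralogs 6 could be tested and 0 passed; 5 of the 6 had a fold change below 0 in the fit of 8 libraries, and 5 of the 6 were higher without WT replicate 2. Rps27l, which p53 induces in human cells, had 16.9, 14.9, 13.1 and 16.2 CPM in the cKO libraries, and 10.4, 39.3, 15.97 and 14.4 CPM in the WT libraries, a log2 fold change of -0.39 with all libraries and 0.17 without WT replicate 2. Rpl22l1, the partner copy of Rpl22, gave -0.19 and 0.06, Rpl36al -0.08 and 0.04, Rsl24d1, an assembly factor related to Rpl24, 0.00 (-0.0020) and 0.05, and Rpl7l1, which did not turn, -0.17 and -0.04. Rpl3l, the striated muscle copy of Rpl3, was higher in cKO in both fits, at 0.48 and 0.31; it averaged 1.28 ± 0.24 CPM in cKO and 0.92 ± 0.62 in WT, with WT replicate 2 at 0.58. Paralog Rpl22l1 had a mean of 875 TPM in cKO and 973 TPM in WT, above its partner Rpl22 in both, at effective lengths of 159 and 1869 bases. In CPM, which is not scaled by length, the order was reversed. Rpl22l1 averaged 73.0 CPM in cKO and 83.4 in WT, and Rpl22 averaged 129 and 139.

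Other translation genes had smaller median differences in WT replicate 2, at longer effective lengths. Among 21 tested genes outside the family known to carry a TOP start, most of them translation factors, 17 were lower and 4 higher in cKO, with 0 called and a median log2 fold change of -0.06, against 0.00 (-0.0048) for all genes, and a median difference in WT replicate 2 of 0.34 (median effective length 1490 bases). Without WT replicate 2 they were 13 higher and 8 lower, with a median of 0.02 and 0 called. Vim, an intermediate filament gene on that list, had 170.7 ± 39.5 CPM in cKO and 264 ± 179 in WT, with 526 CPM in WT replicate 2 (log2 fold change -0.63, and -0.05 without that library). The histone chaperone Nap1l1 and the nucleolar chaperone Npm1 gave -0.15 and -0.10, and -0.03 for each without it. Initiation, elongation and release factors (32 genes) had 17 higher and 15 lower in cKO, 0 called and a median difference of 0.10 in WT replicate 2 (2110 bases). Without that library 23 were higher and 9 lower, with 0 called. Within them Eif2b2 and Eif2b5, subunits of the exchange factor for eIF2, gave log2 fold changes of 0.08 and -0.08, and Eif3k gave -0.13; without WT replicate 2 the 3 values were 0.08, -0.03 and -0.01.

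Genes that build ribosomes were divided between the directions. For 63 ribosome assembly and rRNA synthesis genes, 28 were higher and 35 lower in cKO, 0 were called, and the median log2 fold change was -0.01; the median difference in WT replicate 2 was 0.05, at a median effective length of 2130 bases. Without that library 38 were higher and 25 lower, with a median of 0.02 and 0 called. The lowest p-values there were those of Mrto4, which prepares the stalk site (28.7 ± 2.001 CPM in cKO, 25.4 ± 1.88 in WT, SD, n = 4 each; log2 fold change 0.18, adjusted p = 0.887, edgeR), Imp4 (0.14) and Nop14 (-0.10), both of small subunit processing; without WT replicate 2 the 3 values were 0.22, 0.15 and -0.12. Among 6 chaperones dedicated to single ribosomal proteins, Pdcd2l gave -0.24, Grwd1, the Rpl3 chaperone, 0.12 and Heatr3, which helps to import Rpl5, 0.09, with 0 of 6 called, and -0.15, 0.10 and 0.0034 without WT replicate 2. The 18 genes of mTOR and MYC control had 6 higher and 12 lower in cKO and 0 called; Myc had 5.55, 4.28, 3.39 and 3.44 CPM in the cKO libraries, and 4.42, 10.8, 5.30 and 3.73 CPM in the WT libraries, and its antagonists Mxd4 and Mxd1 gave 0.17 and -0.27. Without WT replicate 2 the split of the 18 was again 6 higher and 12 lower, and Myc, Mxd4 and Mxd1 gave -0.11, 0.12 and -0.09. The 10 genes of ribosome rescue and dormancy had 6 higher and 4 lower and 0 called, with Zfp598, the sensor of collided ribosomes, at 0.13, Hbs1l at 0.06 and Nemf at -0.06; without WT replicate 2 they were 5 higher and 5 lower, with these 3 at 0.09, 0.06 and -0.06. None of the 10 was highest in WT replicate 2, and their median difference there was -0.08.

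The mitochondrial ribosome, whose proteins are encoded by separate nuclear genes, and the respiratory chain were the closest comparisons. Of 78 mitochondrial ribosomal protein genes, 52 were lower and 26 higher in cKO with 0 called and a median of -0.03, and 54 were highest in WT replicate 2, with a median difference of 0.25 at a median effective length of 744 bases. Without that library 63 were higher and 15 lower, with a median of 0.04 and 0 called. They took 0.627%, 0.630%, 0.608% and 0.620% of TPM in the cKO libraries, and 0.603%, 0.687%, 0.620% and 0.609% in the WT libraries. Of 80 tested respiratory chain genes, 44 were higher and 36 lower in cKO with 0 called, 44 were highest in WT replicate 2, and the median difference was 0.20. Without that library 73 were higher and 7 lower, with a median of 0.07 and 0 called, beside 70 higher and 6 lower and a median of 0.06 for the 76 cytosolic genes. Their median effective length of 357 bases was close to the 393 bases of the cytosolic ribosomal protein genes, whose median difference was 0.65.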

How the data were processed

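RNA was measured in dorsal root ganglia of 4 cKO and 4 WT libraries; nothing says whether they came from separate animals, so p-values measure the spread between these libraries. The authors deposited 1 table with estimated counts (not normalized), TPM and FPKM per gene, and counts scaled per library (a signal not used here), per the file headers. HISAT2 2.2.1, Bowtie2 2.4.5, RSEM 1.3.1, GRCm38 and mm10 are named without role or order, per the submitters' processing notes. Columns headed Ctrl were taken as WT, the only other group. Libraries held 15522915 to 16482614 estimated counts.

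Estimated counts were rounded, filtered by filterByExpr per group (15098 genes kept), scaled by TMM and tested cKO against WT with edgeR 4.0.16 (glmQLFit, glmQLFTest; R 4.3.3), with Benjamini-Hochberg adjustment over all tested genes and a threshold of 0.05. Log2 CPM used a prior count of 2. The edgeR step was tested on simulated data with 200 changed genes. Alternatives used size factors by relative log expression in edgeR, the DESeq2 1.42.0 test, no filter, a replicate block, and each library left out. Further alternatives used limma 3.58.1 on counts (voom) and on log2(TPM + 0.1) or log2(TPM + 1). Summaries used pandas 2.3.3 and scipy 1.17.1, and plots matplotlib 3.10.9. Effective length is the count divided by the FPKM and by the library total, times a constant. Start site sequences and gene positions come from RefSeq.

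The genes, lists and markers were chosen with earlier results of these data known. Members named by rule are the 6 highest and 6 lowest by mean TPM, the 6 of lowest p in each direction and the 5 with the largest SD over 8 libraries. For other lists they are ribosomal proteins outside the pattern and the 3 of lowest p. Members named with values outside this rule include Rplp0, Rplp1, Rplp2, Rpl5, Rpl11 and Rps27a, and Rpl8, Rpl4, Rpl3, Rpl24, Rps28 and Rps29. Some genes that this rule or the marker lists hold are not reported here. The design text speaks of 4 sequencing batches, but no label assigns a library to one, so no batch term was fitted.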

Additional observations from a re-analysis of the deposited data

Results flagged for a closer look

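In 96 groups of 4 libraries, 1 library was checked for standing far from the other 3 (its gap to the nearest over the whole range), and 15 values did. For a single group, chance gives about 1 in 20. The groups share the same libraries, and some members were named for a large SD, so 15 of 96 cannot be set against that rate. Of the 15, 12 were in WT and 3 in cKO. Among all 76 ribosomal protein genes, WT replicate 2 was past this limit in 33, and the family's share of estimated counts there, 2.34%, was as well. The highest WT value, always that of replicate 2, stood apart for Rps27 (141 CPM), Rpl41 (267 CPM), Rps20 (162 CPM), Rpl15 (367 CPM), Rpl10a (192 CPM), Rps12 (210 CPM), Rpl39 (112 CPM) and Rpl34 (149 CPM). Outside the family it stood apart for Nap1l1 (366 CPM) and Mxd1 (46.0 CPM), and the same library was the low one for Zfp598 (29.4 CPM). In cKO, replicate 3 was the low library for Rpl38 (38.1 CPM), Rpl41 (125 CPM) and Rps20 (75.9 CPM).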

How the results depend on the processing

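No ribosomal protein gene passed the adjusted threshold under any alternative run. The lowest adjusted p was 0.631 (edgeR, without WT replicate 1), leaving aside the fits with 2 libraries left out, for which it was not taken. Over all tested genes, 1 gene passed with DESeq2, 1 with limma on log2(TPM + 0.1) without the filter, and 0 to 1 when 1 or 2 libraries were left out; at an unadjusted p below 0.05 the count with all libraries was 249. The number of members higher in cKO, 0 in the fit as reported, was 2 under each of the 3 limma fits on TPM and 0 to 74 with libraries left out; apart from the fits without WT replicate 2, only leaving out cKO replicate 3 moved it, to 2. The median log2 fold change ranged from -0.23 to -0.09 with WT replicate 2, and without it was 0.055, so its leave-one-out range was -0.23 to 0.055; with a further library left out as well it was 0.016 to 0.085. The difference in family share of TPM ranged from -1.11 to 0.086 percentage points with a library left out. With the replicate number as a block, 0 members were higher and the median was -0.11, with 0 genes called; correlations of same-numbered libraries were 0.01, 0.05, -0.04 and 0.25, so the numbers were not taken as pairs, and in 1 of 4 cases the library correlated best with its own number.

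Of 46 named genes 23 changed sign, all of them without WT replicate 2, and none crossed the threshold. Their lowest and highest log2 fold changes with 1 library left out were -0.31 and 0.15 for Rps27, -0.24 and 0.029 for Rpl23a, -0.22 and 0.10 for Rpl38, -0.33 and 0.026 for Rpl26, -0.18 and 0.090 for Rps15, -0.30 and 0.13 for Rpl41, -0.37 and 0.0073 for Rps20, -0.14 and 0.035 for Rps15a, -0.15 and 0.14 for Rpl23, -0.14 and 0.10 for Rpl15, -0.38 and 0.0066 for Rpl10a, -0.39 and 0.0057 for Rpl10, -0.42 and 0.023 for Rps12, -0.33 and 0.23 for Rpl39, -0.38 and 0.11 for Rpl34 and -0.38 and 0.051 for Rps25. Outside the pattern they were -0.21 and 0.023 for Rps3a1, -0.26 and 0.071 for Fau, -0.24 and 0.043 for Rack1, -0.29 and 0.056 for Rpl22l1, -0.13 and 0.037 for Rpl36al, -0.61 and 0.17 for Rps27l and -0.036 and 0.050 for Rsl24d1. Rpl38 and Rsl24d1 also changed sign when another library was left out. Rpl23 was 0.01 in the 3 limma fits on TPM (0.0127 with pseudocount 0.1, 0.0125 with 1). Rsl24d1 was 0.03 in those fits (0.0301 with pseudocount 0.1 and 0.0297 with 1), 0.00021 with limma-voom, 0.0041 without a filter and 0.0003977 with the replicate block. The cause of these changes was not tested. The unadjusted 95% interval of a member spans 0.38 on either side at the median with all libraries and 0.14 without WT replicate 2.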
